A study of Mus musculus with 13 samples.

Results

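Ccl1, Ccl3, Ccl4, Ccl5 and Xcl1 encode 5 chemokine ligands that T cells secrete, and their transcripts were followed in T cells sorted from B16-F10 tumors with Treg cells in place or ablated. They were taken by gene symbol as 5 of the 12963 genes of the deposited expression table, and they had been chosen by their levels in these libraries, which were already known to differ between groups, so their levels and differences are given as a description with no p-value. B16-F10 is a mouse melanoma line, here grown under the skin of syngeneic mice. Every group, controls included, came from Foxp3-EGFP-DTR animals, in which the Foxp3 locus drives EGFP and DTR, the receptor of human cells for diphtheria toxin (DTx), which thereby removes Foxp3+ cells from the whole animal, not from the tumor alone. The groups from mice given PBS were Treg cells (Treg PBS, n = 3) and, as conventional T (Tconv) cells, CD4+ (CD4 PBS, n = 2) and CD8+ ones (CD8 PBS, n = 2). The others were CD4+ Tconv cells (CD4 DTx, n = 3) and CD8+ Tconv cells (CD8 DTx, n = 3) of mice given DTx. The labels give no age, sex or day for any library. Libraries carry the numbers of their sample titles, and the PBS-treated Tconv libraries used here were numbered 2 and 3. Values are normalized reads, that is, reads divided by 1 size factor for each library.

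Chemokines are small secreted proteins that draw in cells carrying the matching receptor. Ccl1 is the ligand of CCR8, a receptor of tumor Treg cells and of type 2 helper T cells. Ccl3, Ccl4 and Ccl5 are inflammatory chemokines that draw in monocytes and effector T cells, and of these Ccl3 and Ccl5 bind CCR1 and Ccl5 binds CCR3 as well. Xcl1 is the ligand of XCR1, which is carried by the dendritic cells that cross-present antigen to CD8+ T cells. Activated CD8+ T cells and NK cells release Ccl3, Ccl4, Ccl5 and Xcl1 together with interferon-γ, and calcium-driven NFAT factors act at many cytokine and chemokine promoters of activated T cells.

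The bases just upstream of the start sites are shown because these genes differed between groups of T cells and NFAT is the factor most tied to T cell activation among those whose core is short enough to be seen by eye. The RefSeq promoter table held 3 of the 5 genes (Ccl1, Ccl3 and Xcl1), and Ccl4 and Ccl5 are named only. Each line below gives 250 bases that end at the base before the start, in GRCm38.p6 coordinates and read 5′ to 3′ along the gene. Capitals mark every match to GGAAA, the core bound by NFAT, or to its complement TTTCC.
Ccl1 chr11:82179813-82180062 minus strand: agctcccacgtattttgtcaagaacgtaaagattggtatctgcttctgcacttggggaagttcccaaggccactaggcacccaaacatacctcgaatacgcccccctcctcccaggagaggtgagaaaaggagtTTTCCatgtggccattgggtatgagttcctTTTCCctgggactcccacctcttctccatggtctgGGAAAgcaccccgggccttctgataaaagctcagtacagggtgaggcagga
Ccl3 chr11:83649379-83649628 minus strand: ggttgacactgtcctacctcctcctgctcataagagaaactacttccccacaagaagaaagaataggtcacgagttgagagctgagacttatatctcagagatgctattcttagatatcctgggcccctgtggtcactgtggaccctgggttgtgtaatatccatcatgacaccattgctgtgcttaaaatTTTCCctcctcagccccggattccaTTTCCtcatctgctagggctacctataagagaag
Xcl1 chr1:164935523-164935772 minus strand: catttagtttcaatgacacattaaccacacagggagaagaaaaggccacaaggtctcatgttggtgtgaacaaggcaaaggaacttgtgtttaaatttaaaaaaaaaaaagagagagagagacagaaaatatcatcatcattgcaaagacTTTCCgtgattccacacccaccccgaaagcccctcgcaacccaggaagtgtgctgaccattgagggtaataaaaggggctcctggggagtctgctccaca
The upstream window of Ccl1 held 3 such matches, that of Ccl3 held 2 and that of Xcl1 held 1. Of 32851 promoter windows of the same length, 55.6% held at least 1. The Ccl1 matches lay at bases 116 to 112, 86 to 82 and 51 to 47 before the start, and those of Ccl3 at bases 59 to 55 and 34 to 30. The Xcl1 match lay at bases 100 to 96. An NF-kB type pattern, GGG and then CC with any 5 bases between, which can share bases with the NFAT core, matched only in Ccl1 among the 3 windows, at bases 196 to 187 and, on the other strand, 195 to 186, which is 1 stretch read both ways (45.8% of windows hold a match). TGANTCA, the AP-1 pattern, matched in 0 of the 3 (6.75% of windows). TGNGGT, a Runx pattern, matched once in Ccl3 and once in Xcl1 (40.1% of windows). All patterns were searched on both strands, and a match is a description of letters, not a bound site.

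Depth and purity bear on all 5 genes. The 13 libraries held between 15947556 and 34140486 recovered reads, and 3 reads, taken as the floor of detection, were worth between 1.98 and 4.10 normalized reads. Cd4 was between 0 and 413 normalized reads in the CD8 libraries, Cd8a between 26.4 and 1302 in the Treg and CD4 libraries, and Foxp3 was at 0 in both CD4 PBS libraries. These transcripts thus matched the labels, with some Cd8a in CD4 DTx that is taken up below. Cd8b1, a CD8 lineage gene, was between 267 and 2360 in the Treg and CD4 libraries and between 37680 and 81586 in the CD8 ones. Zbtb7b, a CD4 lineage gene, divided the groups less widely. It was between 0 and 306 in the CD8 libraries and between 350 and 1375 in the Treg and CD4 ones. Markers of other cells were present to an unequal extent. The summed level of 5 NK markers was 4349.5 normalized reads in CD8 PBS 2 against 337 in CD8 PBS 3, and 7674 and 2907 in CD8 DTx 2 and 3 against 351 in CD8 DTx 1. In 4 mast cell and basophil markers the sum was 9087 in CD8 DTx 2 and 1190 in CD8 DTx 3, against 0.847 to 132 in the other 11 libraries. The part of these cells in the results below was not tested, other than by leaving the libraries out where stated. In sorted bulk samples, a change in the number of producing cells and a change in RNA per cell cannot be told apart.

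Ccl1, the CCR8 ligand, was at 0 in both CD4 PBS libraries and present in every library of the DTx-treated mice. Its level was 1634, 1340 and 1647 normalized reads in CD4 DTx 1, 2 and 3. In CD8 DTx it was 1335, 1072 and 1053, and in CD8 PBS 226 and 38.7. In Treg PBS it was 248, 191 and 83.6. Both DTx groups thus lay above every library of the PBS-treated mice, Treg cells included. Group means ± SD were 1540.5 ± 173 in CD4 DTx (n = 3), 1153 ± 158 in CD8 DTx (n = 3), 174 ± 83.5 in Treg PBS (n = 3) and 132 ± 132.5 in CD8 PBS (n = 2). In this order the neighbours CD4 DTx and CD8 DTx had nearest libraries at 1340 and 1335 normalized reads, and with TMM scaling in place of the deposited one they overlapped. Treg PBS and CD8 PBS overlapped. Against the floor of 3 reads in the shallower CD4 PBS library, the mean was at least 376-fold higher in CD4 DTx, at least 42.5-fold higher in Treg PBS and at least 32.3-fold higher in CD8 PBS.

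Ccl3, also called MIP-1α, was highest in CD8 T cells after ablation and low in CD4 Tconv cells. CD8 DTx 1, 2 and 3 were at 6637, 2932 and 4026 normalized reads and CD8 PBS 2 and 3 at 1063 and 213. Treg PBS 1, 2 and 3 were at 1666, 604 and 963. CD4 DTx 1, 2 and 3 were at 382, 242 and 294, against 41.0 and 25.8 in CD4 PBS. The order by mean was CD8 DTx (4531 ± 1904), Treg PBS (1078 ± 540), CD8 PBS (638 ± 601), CD4 DTx (306 ± 70.9) and CD4 PBS (33.4 ± 10.8). Treg PBS overlapped CD8 PBS, and CD8 PBS overlapped CD4 DTx, whereas the first and the last group stood clear of their neighbours. Ccl3 was the only one of the 5 genes for which every CD4 DTx library lay below every Treg PBS library.

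Ccl4, or MIP-1β, which is encoded next to Ccl3, had the same order of group means as Ccl3. It was at 24927, 9971 and 9800.2 normalized reads in CD8 DTx 1, 2 and 3, and at 1621 and 902 in CD8 PBS. In Treg PBS it was at 5203, 1704 and 1470.3. CD4 DTx held 1520, 700.4 and 1184, against only 10.9 and 35.7 in CD4 PBS. Between the clear extremes of CD8 DTx and CD4 PBS, the groups Treg PBS (2792.5 ± 2091), CD8 PBS (1262 ± 508) and CD4 DTx (1135 ± 412) overlapped as neighbours. CD8 DTx 1 and Treg PBS 1 were each well above the other libraries of their group.

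Ccl5, known as RANTES, was the highest of the 5 per length of transcript in every group (per-length values below). CD8 DTx held 52474, 60574 and 35540 normalized reads, against 8615 and 3294 in CD8 PBS. Treg PBS held 19914, 5966 and 5176. CD4 DTx held 6325, 3925 and 6284, against 1286 and 703 in CD4 PBS. Every CD8 DTx library lay above the other groups and every CD4 PBS library below them. Treg PBS (10352 ± 8291), CD8 PBS (5954 ± 3763) and CD4 DTx (5511.5 ± 1374) overlapped one another.

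Xcl1, or lymphotactin, was the only one of the 5 whose CD8 groups overlapped before and after ablation. CD8 DTx was at 1458, 1045 and 1044.5 normalized reads and CD8 PBS at 1089 and 449. Treg PBS was at 101, 78.0 and 41.2 and CD4 PBS at 20.5 and 9.91. CD4 DTx was at 0.935, 61.3 and 68.5, the first of which was 1 recovered read and under the floor. The order by mean was CD8 DTx (1182 ± 238.5), CD8 PBS (769 ± 452), Treg PBS (73.3 ± 30.1), CD4 DTx (43.6 ± 37.1) and CD4 PBS (15.2 ± 7.49), and the only neighbours without overlap were CD8 PBS and Treg PBS. Xcl1 reads are uncertain in one respect, because an antisense gene, Gm20743, overlaps it and the strand setting of the counting is not given in the sources used here.

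**Figure D1:**
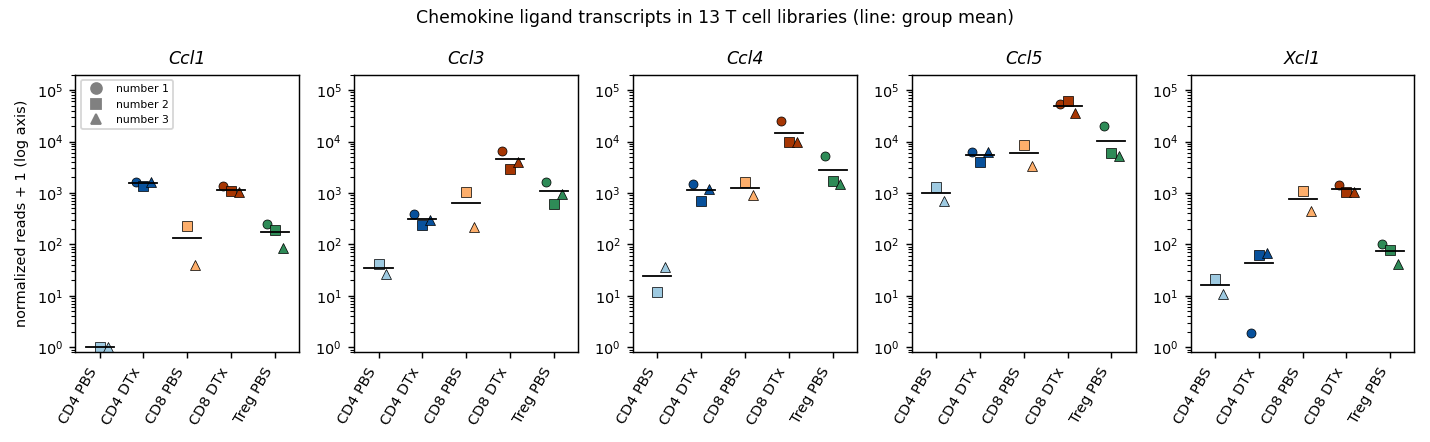
Normalized reads (plus 1, log axis) of the 5 chemokine genes in each of the 13 libraries, by group, with symbols for the library number and a line at the group mean. Ccl1 ranges from 1340 to 1647 in CD4 DTx and is at 0 in CD4 PBS, while Ccl3, Ccl4 and Ccl5 are highest in CD8 DTx and Xcl1 is at 449 or more only in the CD8 groups.

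Levels of different genes can be set side by side only per length of transcript. With the principal transcripts of GENCODE M21, mean normalized reads per kilobase in CD8 DTx were 93100 for Ccl5, 22575 for Ccl4, 5916 for Ccl3, 2261 for Xcl1 and 2243 for Ccl1. In CD4 DTx they were 10360.0 for Ccl5, 2997 for Ccl1, 1719 for Ccl4, 399.7 for Ccl3 and 83.3 for Xcl1. Per length, then, Ccl1 was in second place in CD4 DTx and in last place in CD8 DTx. The place of Ccl1 depends on the gene model. The annotation holds a long Ccl1 isoform, and with all exons counted (2369 bases in place of 514) Ccl1 came to 650.3 per kilobase in CD4 DTx, below Ccl4 and above Ccl3. In Treg PBS the order was Ccl5 (19459), Ccl4 (4231), Ccl3 (1407), Ccl1 (339) and Xcl1 (140.2) with the principal transcripts, and with all exons Ccl1 came to 73.5, below Xcl1.

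The effect of Treg ablation on CD4 Tconv cells was described by comparing CD4 DTx with CD4 PBS. All libraries of CD4 DTx lay above both CD4 PBS libraries for Ccl1, Ccl3, Ccl4 and Ccl5, 4 of the 5 genes, where 23.4% of the 12667 genes tested did so. The log2 fold change was 5.69 for Ccl4 (SE 0.64), 3.17 for Ccl3 (SE 0.62) and 2.50 for Ccl5 (SE 0.56). For Xcl1 it was 0.41 with an SE of 1.22. The median over the 5 genes was 3.17, against -0.04 over all genes tested. The value for Ccl4 rests on the low CD4 PBS libraries, being 4.88 without CD4 PBS 2 and 6.50 without CD4 PBS 3. For Xcl1 even the sign depended on single libraries, the difference being 2.10 without CD4 DTx 1, -0.40 without CD4 DTx 2 and -0.48 without CD4 DTx 3.

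In CD8 T cells the same question was put by comparing CD8 DTx with CD8 PBS. Again Ccl1, Ccl3, Ccl4 and Ccl5 stood clear, 4 of the 5 genes, where 22.8% of all genes had every CD8 DTx library above both CD8 PBS libraries. Log2 fold changes were 3.60 for Ccl1 (SE 0.65), 3.47 for Ccl4 (SE 0.635), 3.18 for Ccl5 (SE 0.56) and 3.16 for Ccl3 (SE 0.62). Xcl1 differed by 0.74 with an SE of 1.22. The CD8 PBS libraries had number 2 above number 3 for every one of the 5 genes, and they were least far apart for Ccl4, at 1621 and 902 normalized reads. Without CD8 PBS 2 the values were 4.85 for Ccl1, 4.32 for Ccl3, 3.90 for Ccl4, 3.88 for Ccl5 and 1.38 for Xcl1. Without CD8 PBS 3 they were 2.34 for Ccl1, 2.01 for Ccl3, 3.05 for Ccl4, 2.49 for Ccl5 and 0.10 for Xcl1. CD8 PBS 2 was also the one with the higher NK marker sum and CD8 DTx 1, the CD8 DTx library with the lowest NK marker sum, had the highest Ccl1, Ccl3, Ccl4 and Xcl1 of its group. Ccl5 was highest in CD8 DTx 2, the library with the highest NK marker sum, at 60574 normalized reads against 52474 in CD8 DTx 1. With the 3 CD8 libraries of high Ncr1, an NK receptor gene, left out, a choice made after seeing the data, the differences were larger, at 5.07 for Ccl1, 4.95 for Ccl3, 4.79 for Ccl4, 3.99 for Ccl5 and 1.70 for Xcl1, with 1 library in each group. The libraries left out included CD8 DTx 2 and CD8 DTx 3, which also had the highest mast cell and basophil marker sums. NK cells express Ccl3, Ccl4, Ccl5 and Xcl1 themselves.

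Treg cells were compared with CD4 Tconv cells of the same treatment to ask which of the ligands belonged to the Treg transcriptome of an untreated tumor. All 5 genes had every Treg PBS library above both CD4 PBS libraries, where 29.2% of all genes did. The log2 fold change was 6.81 for Ccl4 (SE 0.64), 4.89 for Ccl3 (SE 0.62), 3.16 for Ccl5 (SE 0.56) and 2.19 for Xcl1 (SE 1.22). The median over the 5 genes was 4.89, against 0.01 over all genes. Treg PBS 1 was the highest Treg library for all 5 genes, and without it the value for Ccl5 was 2.55. Treg PBS 1 also had the highest summed level of 12 macrophage and monocyte markers of its group, at 4179.5 normalized reads against 1916 and 1249, with Csf1r at 199.8 against 37.9 and 22.4. Other sums were higher in Treg PBS than in CD4 PBS without overlap, those of the 6 dendritic markers at 2250 to 4228 against 226 to 741, of 4 B cell markers at 441 to 948 against 147 to 272 and of 4 melanocyte markers, which B16-F10 cells express, at 726.5 to 1197 against 435 to 448. The part of these markers in the result was not tested. Both CD4 PBS libraries, which are also the reference of the CD4 DTx comparison, had macrophage sums of 1392.5 and 1693. The Ccl4 value was 6.0 without CD4 PBS 2 and 7.62 without CD4 PBS 3.

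Set against Treg cells, Tconv cells after ablation divided by gene and by lineage. In CD4 DTx, Ccl1 alone had every library above every Treg PBS library (1 of the 5 genes, 10.2% of all genes), with a log2 difference of 3.27 (SE 0.58). Ccl3 alone had every library below (1 of the 5 genes, 15.2% of all genes), at -1.72 (SE 0.55). Ccl4, Ccl5 and Xcl1 overlapped Treg PBS, at -1.12 (SE 0.57), -0.66 (SE 0.50) and -1.78 (SE 1.09). The difference in Ccl5 was -0.05 without Treg PBS 1, and that in Xcl1 was -0.08 without CD4 DTx 1. Without Treg PBS 3 the genes below Treg PBS numbered 3, and without CD4 DTx 1 they numbered 2. In CD8 DTx all 5 genes stood above every Treg PBS library, where 8.71% of all genes did. Here the log2 differences were 4.07 for Xcl1 (SE 1.09), 2.85 for Ccl1 (SE 0.58), 2.51 for Ccl4 (SE 0.57), 2.51 for Ccl5 (SE 0.50) and 2.11 for Ccl3 (SE 0.55), with Ccl5 at 3.12 without Treg PBS 1. These comparisons share the Treg PBS libraries with the one against CD4 PBS, so they are not independent of it.

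**Figure D2:**
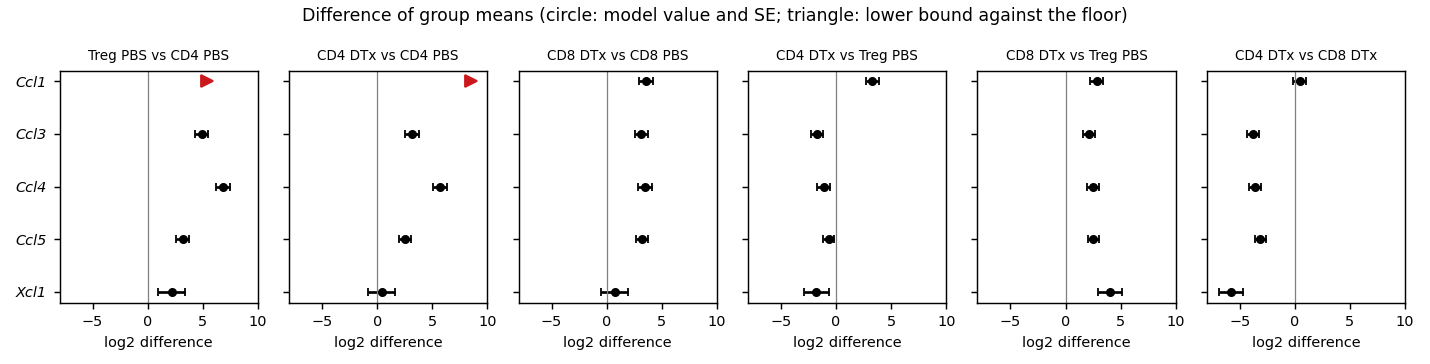
Log2 fold changes of the 5 chemokine genes with their standard errors (bars), on the log2(normalized reads + 1) scale. Every comparison between groups given in the text is shown except CD4 PBS against CD8 PBS. Ccl1 is the only gene with CD4 DTx above Treg PBS and the red triangles give its lower bound against CD4 PBS, which stands at 0.

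The CD4 and CD8 lineages differed in these ligands both with and without Treg cells. With Treg cells in place, every CD4 PBS library lay below every CD8 PBS library for all 5 genes, where 21.7% of all genes did. The log2 difference was -5.85 for Ccl4 (SE 0.70), -5.52 for Xcl1 (SE 1.34), -3.83 for Ccl3 (SE 0.68) and -2.48 for Ccl5 (SE 0.61), and it ranged with the CD8 PBS library left out from -2.68 to -4.99 for Ccl3 from -1.79 to -3.18 for Ccl5 and from -4.88 to -6.15 for Xcl1. The Ccl4 difference was -5.04 without CD4 PBS 2 and -6.66 without CD4 PBS 3. After ablation, Ccl3, Ccl4, Ccl5 and Xcl1 were below CD8 DTx in every CD4 DTx library, 4 of the 5 genes, where 7.88% of all genes were. CD4 DTx was 14.2-fold lower for Ccl3, 12.4-fold lower for Ccl4, 8.98-fold lower for Ccl5 and 57.5-fold lower for Xcl1. The Xcl1 value rests on the library with 1 read, the log2 difference being -4.15 without CD4 DTx 1, -6.65 without CD4 DTx 2 and -6.73 without CD4 DTx 3. Ccl1 was the single gene of the 5 with every CD4 DTx library above every CD8 DTx library (6.02% of all genes), at a log2 difference of 0.42 (SE 0.58), within its standard error. The DTx effect in CD4 minus that in CD8 cells was 0.01 for Ccl3 (SE 0.87), 2.22 for Ccl4 (SE 0.90), -0.68 for Ccl5 (SE 0.79) and -0.33 for Xcl1 (SE 1.73). Ccl1 was at least 376-fold higher after DTx in CD4 cells, as the group mean over the floor. In CD8 cells it was 12.1-fold higher by the fitted log2 fold change, which was 4.85 without CD8 PBS 2 and 2.34 without CD8 PBS 3. These folds are unlike measures, so no difference of effects is given for Ccl1. Over the alternatives the difference of effects ranged from -1.78 (without the CD8 libraries of high Ncr1) to 1.16 (without CD8 PBS 3) for Ccl3 and from -3.72 (without the CD4 DTx libraries of high Cd8a) to 1.37 (without CD4 DTx 1) for Xcl1. It ranged from 0.91 to 3.15 for Ccl4 and from -1.49 to 0.01 for Ccl5.

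Because CD4 DTx libraries held some Cd8a, each ligand was also expressed as a percent of the CD8 DTx mean, beside the CD8 lineage genes. Cd8a came to 0.256%, 1.77% and 3.24% of that mean in CD4 DTx 1, 2 and 3, and Cd8b1 to 0.437%, 2.68% and 3.86%. Xcl1 came to 0.0791%, 5.19% and 5.79%, so the library with the least Cd8a was also the one with 1 Xcl1 read. With CD4 DTx 2 and 3 left out, a choice made after seeing the data, Xcl1 was below CD4 PBS, with a log2 difference of -2.98 that rests on 1 library. Ccl3, Ccl4 and Ccl5 came to 8.44%, 10.2% and 12.8% of the CD8 DTx mean in CD4 DTx 1, where Cd8a was lowest, to 5.35%, 4.70% and 7.93% in CD4 DTx 2, and to 6.48%, 7.95% and 12.7% in CD4 DTx 3, where Cd8a was highest. The part of CD8 cells in these values was not tested. Ccl1 was at 142%, 116% and 143%. In the other direction, Cd4 in CD8 DTx came to 1.56%, 0% and 0.152% of the CD4 DTx mean and Zbtb7b, a CD4 lineage factor, to 19.5%, 9.999% and 32.4%, while Ccl1 there came to 86.7%, 69.6% and 68.3% of it.

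**Figure D3:**
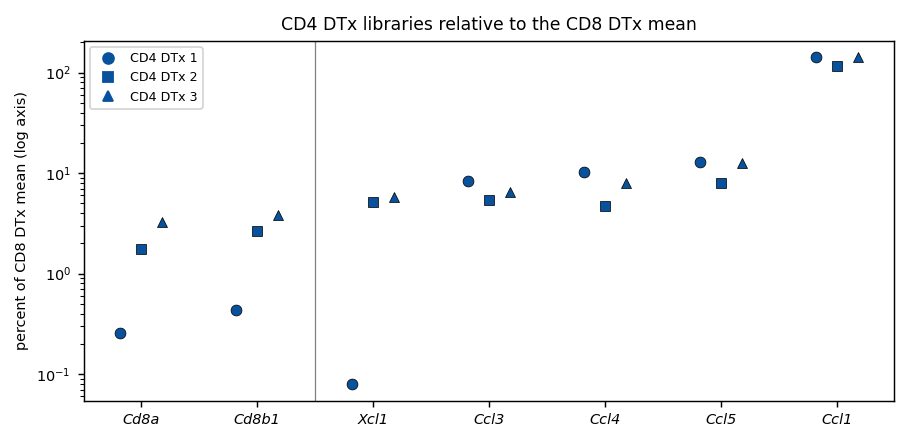
Level in each CD4 DTx library as a percent of the CD8 DTx mean (log axis) for the CD8 lineage genes Cd8a and Cd8b1, left of the line, and the 5 ligands, right of it. Cd8a ranges from 0.256% to 3.24% and Xcl1 from 0.0791% to 5.79%. Ccl3, Ccl4 and Ccl5 lie between 4.70% and 12.8%, and Ccl1 lies above 100%.

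Within groups the ligands varied together to different degrees. Deviations of the 13 libraries from their group means on the log2 scale correlated at r = 0.74 for Ccl1 with Ccl3, at 0.74 for Ccl3 with Ccl5 and at 0.73 for Ccl1 with Ccl5. The pairs of Ccl4 with these 3 lay between 0.54 and 0.55. Pairs with Xcl1 lay between -0.12 and 0.25. These values describe 13 points that share library, depth and group. CD8 PBS 2 and Treg PBS 1 were each the highest of their group for all 5 genes. For Fos, an immediate early gene induced by activation and by handling of cells, they were the lowest. It was at 3397 normalized reads in CD8 PBS 2 against 54646 in CD8 PBS 3, and at 427 in Treg PBS 1 against 2378 and 38019 in Treg PBS 2 and 3. Fos was picked from the listed transcription factors outside the naming rule given below. It was not called in Treg PBS, CD4 DTx or CD8 DTx against their PBS Tconv group. The relation of Fos to the ligands was not tested.

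**Figure D4:**
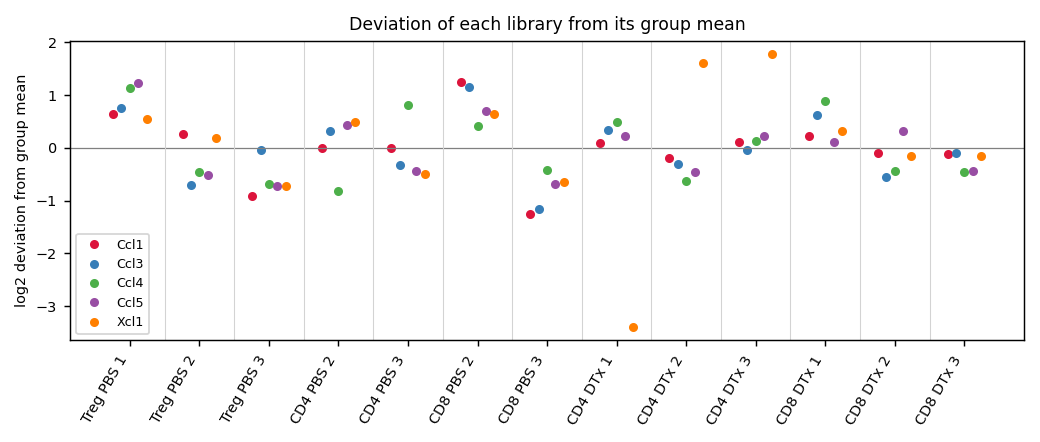
Deviation of each library from its group mean (log2 units) for the 5 ligands, library by library. CD8 PBS 2 lies above CD8 PBS 3 for all 5 genes, and CD4 DTx 1 lies far below its group for Xcl1 alone.

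Likeness of pattern was measured over the 13 libraries by Pearson r of log2 levels, which reflects the group structure, and is given with no p-value. The genes most like Ccl1 were Fam20a (r = 0.97), Pik3ap1 (r = 0.96) and Nrgn (r = 0.96). Ccl3 was most like Plek (r = 0.96), Ccl5 (r = 0.96) and Ccl4 (r = 0.95), and Ccl4 was most like Plek (r = 0.98), Ccl3 (r = 0.95) and Cst7 (r = 0.95), which encodes cystatin F, an inhibitor of lysosomal cathepsins. For Ccl5 they were Ccl3 (r = 0.96), Tmem163 (r = 0.95) and Plek (r = 0.94). For Xcl1 they were Sirt3, which encodes a mitochondrial deacetylase (r = 0.97), Cd244 (r = 0.93) and Cd8b1 (r = 0.92).

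Receptors of the ligands were measured in the same libraries. Of the 5 receptor genes examined 4 had enough reads to test, and Ackr2, a decoy receptor, was at 6.77 normalized reads in Treg PBS 1 and at 0 elsewhere. A gene was called when its limma adjusted p-value was under 0.05 and its fold change above 4. In CD4 DTx against CD4 PBS all 4 tested receptors rose, where 6.85% of all genes were called in either direction. In CD8 DTx against CD8 PBS all 4 rose, where 5.46% were called, and in Treg PBS against CD4 PBS all 4 were higher, where 10.2% were called. With Ccr3 at its bound, the median log2 difference of the 4 was 3.54 in CD4 cells, 2.86 in CD8 cells and 4.74 in Treg cells, against medians of -0.04, -0.03 and 0.01 over all genes.

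Ccr8, the receptor of Ccl1 and the one on which the study centres, so that its rise is not independent evidence, was at 2967, 3737 and 2976 normalized reads in CD4 DTx against 738 and 444.5 in CD4 PBS. The log2 fold change was 2.48 with an SE of 0.46 (limma adjusted p = 0.00387). In CD8 DTx it was at 1442, 1263.5 and 1135 against 550.4 and 119.97 in CD8 PBS, a log2 fold change of 2.30 with an SE of 0.46 (limma adjusted p = 0.00825). No library of either DTx group reached the Treg PBS libraries, at 13693, 13045 and 12961. The call in CD4 cells was lost without CD4 PBS 3 (log2 fold change 2.12, limma adjusted p = 0.0664) and that in CD8 cells without CD8 PBS 3 (1.21, limma adjusted p = 0.0748). With edgeR and DESeq2 the CD8 log2 fold change was 1.96 and 1.93, under the fold threshold.

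Ccr1, which binds Ccl3 and Ccl5, was at 872, 943 and 890.2 in CD4 DTx against 39.6 and 28.4 in CD4 PBS, a log2 fold change of 4.71 (limma adjusted p = 9.12e-05). In CD8 DTx it was at 435, 567 and 458 against 81.4 and 24.0, a log2 fold change of 3.42 (limma adjusted p = 0.00109). Its Treg PBS libraries, at 827, 1186 and 1268, overlapped CD4 DTx.

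Ccr3, which binds Ccl5 and is best known from eosinophils, was at 0 in all 4 PBS-treated Tconv libraries. It was at 391, 705 and 586 normalized reads in Treg PBS, at least 137-fold above the floor of CD4 PBS. CD4 DTx held 15.0, 83.8 and 40.8, at least 11.4-fold higher than CD4 PBS (limma adjusted p = 0.00176), and CD8 DTx held 25.9, 91.5 and 31.0, at least 12.4-fold higher than CD8 PBS (limma adjusted p = 0.00248). Both DTx groups stayed well under Treg PBS. The highest CD8 DTx library for Ccr3, CD8 DTx 2, also had the highest mast cell and basophil marker sum, at 9087 normalized reads. CD4 DTx 2, the highest CD4 DTx library for Ccr3, had a sum of 2.04. The part of those cells in the Ccr3 levels was not tested. Xcr1, the receptor of Xcl1, was at 604, 374 and 528 in CD4 DTx against 73.8 and 21.8 in CD4 PBS (log2 fold change 3.58, limma adjusted p = 0.0005). It was at 657, 604 and 478 in CD8 DTx against 138.5 and 96.0 in CD8 PBS (2.31, limma adjusted p = 0.00924), and at 316, 278 and 337 in Treg PBS. The Xcr1 call in CD8 cells was lost without CD8 PBS 3 (limma adjusted p = 0.134), and that of Ccr3 without the 3 CD8 libraries of high Ncr1 (limma adjusted p = 0.0986). Xcr1 is a dendritic cell gene, and the sum of the 6 dendritic markers in the table, Xcr1 itself and Itgax, which activated CD8+ T cells also express, among them, was 949 to 1292 normalized reads in CD4 DTx against 226 to 741 in CD4 PBS, and 3848 to 6708.5 in CD8 DTx against 416 to 1638 in CD8 PBS. Beside Xcr1, Itgax carried the higher sums, at means of 265 in CD4 DTx against 0 in CD4 PBS and of 4590.4 in CD8 DTx against 305.5 in CD8 PBS. The other markers were at lower means in the DTx groups, H2-Ab1 at 303 against 378 in CD4 cells and 372.5 against 476 in CD8 cells, Zbtb46 at 17.7 against 46.9 and 55.9 against 109, and Flt3 at 5.58 against 10.9 and 0.308 against 19.4. Clec9a was at 0 in every library.

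**Figure D5:**
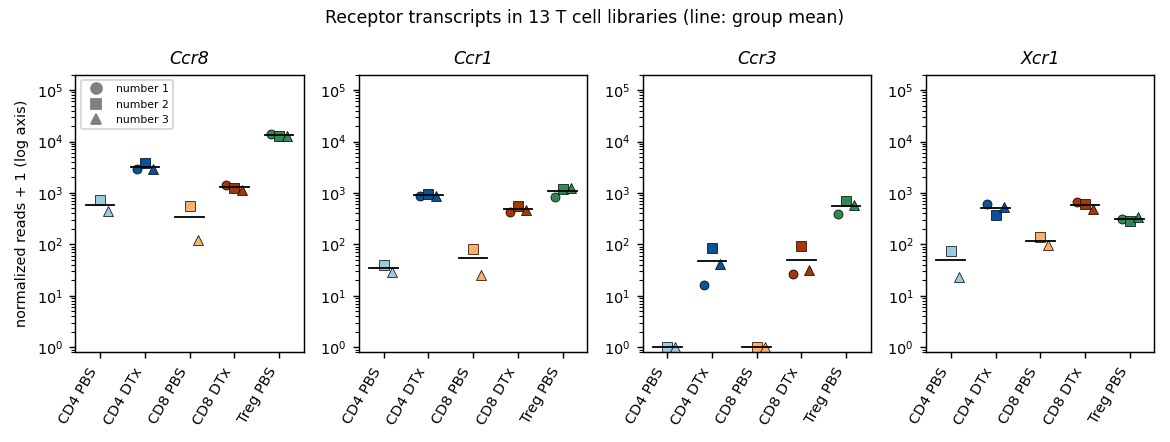
Normalized reads (plus 1, log axis) of the 4 tested receptor genes in each library, by group, with a line at the group mean. Ccr8 and Ccr3 are highest in Treg PBS, and both PBS-treated Tconv groups are lowest for every receptor.

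In the remaining comparisons the receptors divided. Against Treg PBS, 2 of the 4 were called lower in CD4 DTx, where 4.01% of all genes were called. These were Ccr3 (log2 fold change -3.83, limma adjusted p = 0.0103) and Ccr8 (-2.04, limma adjusted p = 0.0106). In CD8 DTx the same receptors were called lower than in Treg PBS, Ccr3 at -3.67 (limma adjusted p = 0.0106) and Ccr8 at -3.38 (limma adjusted p = 0.000312), where 4.93% of all genes were called. The Ccr3 calls were lost without Treg PBS 2, at log2 differences of -3.64 and -3.48 (limma adjusted p = 0.0506 and 0.0531). The Ccr8 call in CD4 DTx, close to the fold threshold, was lost with TMM scaling or edgeR and without CD4 DTx 1 or CD4 DTx 3, at a log2 difference of -1.99 without either library. Between CD4 DTx and CD8 DTx limma called 0 of the 4, with 2 at an unadjusted p under 0.05 and 0 called by edgeR or by DESeq2, where 1% of all genes were called. Ccr8 came nearest, with a log2 difference of 1.33 (limma adjusted p = 0.172). Between CD4 PBS and CD8 PBS limma called 0, with 2 at an unadjusted p under 0.05 and 0 called by edgeR or DESeq2, where 0.908% of all genes were called. The DTx effect did not differ by the test between CD4 and CD8 cells for any of the 4, with 0 at an unadjusted p under 0.05 and 0 called by edgeR or DESeq2, where limma called 0.0474% of all genes.

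From a list of 29 other chemokine ligands, 17 were in the table and 16 were tested. The counts below stand beside 6.85% of all genes called in CD4 cells, 10.2% in Treg cells and 5.46% in CD8 cells. In CD4 DTx against CD4 PBS limma called 0, with 2 at an unadjusted p under 0.05 and 0 called by edgeR or DESeq2, and the median log2 fold change was -1.33, or -1.20 with genes that were at the floor in 1 group set at their bound. In Treg PBS against CD4 PBS limma called 0, with 3 at an unadjusted p under 0.05, 0 called by edgeR and 1 by DESeq2. In CD8 DTx against CD8 PBS 1 gene was called, Ccl7, a monocyte chemoattractant. It fell from 74.1 and 13.3 normalized reads to 0 in all 3 CD8 DTx libraries, at least 10.8-fold (limma adjusted p = 0.0261). The Ccl7 call was lost with edgeR and without CD8 PBS 2, CD8 PBS 3, CD8 DTx 1 or CD8 DTx 2, at limma adjusted p-values of 0.226, 0.0878, 0.0613 and 0.0638, whereas DESeq2 called 4 genes of the list.

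Genes of the secretory program that activated T cells release with these chemokines were examined as a list of 12. In CD4 DTx against CD4 PBS 7 were called higher and 0 lower, with a median log2 fold change over the 12 of 2.15. In CD8 DTx against CD8 PBS 5 were called higher and 0 lower, with a median of 1.87. Of all genes, 6.85% and 5.46% were called. Prf1, a gene of this list taken up below, was not called in CD4 cells. Every CD4 DTx library nonetheless lay below both CD4 PBS libraries for it (log2 fold change -1.38). Ifng, which encodes interferon-γ, was at 2212, 1085 and 1638 normalized reads in CD4 DTx against 297 and 479 in CD4 PBS, a log2 fold change of 2.06 with an SE of 0.56 (limma adjusted p = 0.0307). In CD8 DTx it was at 9423, 2672 and 3401 against 758 and 681, a log2 fold change of 2.62 with an SE of 0.56 (limma adjusted p = 0.0116). CD8 DTx 1 was thus the highest library for Ifng as it was for Ccl3 and Ccl4. The Ifng call was lost in CD4 cells without CD4 PBS 2, CD4 PBS 3, CD4 DTx 1 or CD4 DTx 3, and in CD8 cells without either CD8 PBS library. Gzmb, the granzyme that cleaves caspases, had log2 fold changes of 5.30 in CD4 cells (limma adjusted p = 0.000188) and 5.18 in CD8 cells (limma adjusted p = 0.000534). Fasl, the ligand of the death receptor Fas, had log2 fold changes of 2.23 (limma adjusted p = 0.00293) and 3.50 (limma adjusted p = 0.000496). Gzma and Gzmk rose in both lineages, while Csf2, which encodes GM-CSF, and Srgn, the proteoglycan of secretory granules, rose in CD4 cells. In CD4 cells the calls of Gzma and Gzmk were lost without CD4 PBS 3 (limma adjusted p = 0.185 and 0.101), that of Srgn without CD4 PBS 3 or CD4 DTx 1 (log2 fold changes of 1.91 and 1.85) and that of Fasl without CD4 DTx 1 (1.93). Without all libraries numbered 3, the calls of Gzma, Gzmk and Fasl were lost in both lineages and those of Csf2 and Srgn in CD4 cells.

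In Treg cells the genes of this list divided. Against CD4 PBS, 2 of the 12 genes were higher in Treg PBS, Gzmb at a log2 fold change of 6.15 (limma adjusted p = 4.63e-05) and Srgn at 2.48 (limma adjusted p = 0.000337). A further 2 were lower, Gzmk at -3.21 (limma adjusted p = 0.00136) and Gzma at -2.70 (limma adjusted p = 0.0479), the last of which was lost without any 1 of the 5 libraries compared. Ifng was at 568, 291 and 977 normalized reads in Treg PBS, overlapping the CD4 PBS libraries.

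Type 2 cytokines accompany Ccl1 in type 2 helper T cells, and 5 such genes were tested. In CD4 DTx against CD4 PBS 3 rose, where 6.85% of all genes were called. Il4 was at 256, 718 and 442 normalized reads in CD4 DTx against 1.37 and 0.661 in CD4 PBS, at least 115-fold higher (limma adjusted p = 0.0005). Il5 was at 738, 791 and 356 against 8.20 and 0, a log2 fold change of 7.61 (limma adjusted p = 0.00637), and the call was lost without CD4 PBS 3. Gata3, the type 2 master regulator, had a log2 fold change of 2.05 (limma adjusted p = 0.00621), and fell out of the calls without CD4 PBS 2, CD4 DTx 2 or CD4 DTx 3. In CD8 DTx against CD8 PBS only Il4 of the 5 was called, at 13.9, 40.4 and 16.2 normalized reads against 0 and 0, at least 5.87-fold higher (limma adjusted p = 0.0167), and this call was lost without CD8 PBS 2, CD8 PBS 3 or CD8 DTx 2. Ccl1 was between 1053 and 1335 normalized reads in those same CD8 DTx libraries. The highest of them for Il4, CD8 DTx 2, also had the highest mast cell and basophil marker sum. That sum was 9087 normalized reads, against 28.6 in CD8 DTx 1 and 1190 in CD8 DTx 3. In CD4 DTx 2, the highest CD4 DTx library for Il4, it was 2.04. The part of those cells in the Il4 levels was not tested. In Treg PBS against CD4 PBS, Il10 was the 1 gene called, at least 332-fold above CD4 PBS (limma adjusted p = 0.00282).

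Of 21 transcription factors of T cell activation, 2 were called in CD4 cells, 3 in CD8 cells and 1 in Treg cells, where 6.85%, 5.46% and 10.2% of all genes were called. In CD4 DTx against CD4 PBS both rose, Tbx21, which encodes T-bet, by a log2 fold change of 3.24 (limma adjusted p = 0.0005) and Nfkb1 by 2.04 (limma adjusted p = 0.000348), the latter lost without CD4 PBS 2 or CD4 DTx 2. In CD8 DTx against CD8 PBS Tbx21 rose by 2.57 (limma adjusted p = 0.00329), a call lost without CD8 PBS 3. Jun (-4.75, limma adjusted p = 0.0399) and Junb (-2.67, limma adjusted p = 0.0371) were called lower there, and both calls were lost without CD8 PBS 3, CD8 DTx 1 or CD8 DTx 2, and under other settings too. In CD4 cells both lay in the same direction without being called, at log2 fold changes of -4.30 for Jun and -2.29 for Junb. Under 8 (Jun) and 4 (Junb) of 24 alternatives they were called lower in CD4 cells too. In Treg PBS against CD4 PBS 1 was called, Nr4a3 at 4.79 (limma adjusted p = 0.0336), lost without any 1 of the Treg PBS libraries or without CD4 PBS 2, and under other settings too. Its CD4 PBS libraries were at 0 and 141 normalized reads, and the log2 fold change was 1.21 without CD4 PBS 2. With edgeR and DESeq2 it was 2.22 and 2.25, and neither called the gene. The median log2 fold change of the 21 was 0.11 in CD4 cells, 0.03 in CD8 cells and 0.30 in Treg cells.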

How the data were processed

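RNA was sequenced from T cells sorted from tumors of 5 groups of mice (13 libraries). Per the labels and methods, SMART-type low-input libraries were sequenced on a HiSeq instrument, and the reads were trimmed with Cutadapt, inspected with FastQC and aligned with hisat2 to NCBIM37 (mm9), and uniquely mapped reads were counted by gene and scaled to library size with a step named intergenic read normalization. The read counter, its strand setting and the gene filter are not given in the sources used here. The protocol in the labels names a CD4+ enrichment before the sort and does not state an exception for CD8+ samples. Nothing ties each library to 1 animal, so p-values measure the spread between these libraries, which the study calls biological replicates and describes as taken on separate days. The sources do not say that a library's number marks a day.

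The authors deposited 1 table, with a row per gene symbol and a normalized signal in each library's column. In every column 100% of the values lay within 0.01 of a read of a multiple of 1 unit, so whole reads were recovered, and a normalized value is a read count over 1 size factor. All columns were matched to samples by title. The floors cover counting error only, since no molecular identifiers were used, whereas SDs and standard errors measure the spread between libraries. Replicate libraries differed by more than counting noise (chi-square over its degrees of freedom 43.5 to 244) and each was kept as a sample.

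Tests covered genes that reached 10 normalized reads in 2 or more libraries (12667 genes, all 5 ligands among them). Log2(value + 1) was fitted over 13 libraries with 1 mean per group in limma 3.58.1 (eBayes with a mean trend, R 4.3.3), p-values were adjusted by Benjamini-Hochberg over all genes, and a call needed an adjusted p under 0.05 and an absolute log2 fold change above 2. Fold changes on this scale understate low genes. The main test assumed values scaled to a fixed library total, and its pseudocount and minimum were kept although the scale proved to be that of reads. Against a group at or under 3 reads the fold is a lower bound. ± is the SD over libraries. Counts on the recovered reads with edgeR 4.0.16 (quasi-likelihood) and DESeq2 1.42.0 served as alternatives and called, in the order Treg PBS, CD4 DTx and CD8 DTx against their PBS Tconv group, 996, 712 and 528 (edgeR) and 1371, 1041 and 803 (DESeq2) genes, against 1292, 868 and 692 by limma. The limma test of CD4 DTx against CD4 PBS was tried on simulated counts with known changes. The other steps were not tested in this way. The other alternatives were a pseudocount of 0.5 or 10, no filter, TMM scaling, no fold threshold, the groups of a comparison alone, the replicate number as a block, each library left out, all libraries numbered 3 left out and, added after seeing the data, libraries with high Ncr1 or high Cd8a left out.

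The 5 ligands and all gene lists were chosen with earlier results of these data known. Named genes were the 5 ligands, every receptor examined, every listed gene called in Treg PBS or CD4 DTx against CD4 PBS or CD8 DTx against CD8 PBS, and the 3 genes of highest Pearson r with each ligand. Fos was named outside this rule, as were marker genes and the genes flagged below. One receptor gene is not reported here. Same-numbered CD4 DTx and CD8 DTx libraries deviated together (r = 0.36, 0.21 and 0.59 for numbers 1, 2 and 3), a pairing that comes from the sample titles and these correlations. With it as a block 179 genes were called between these groups, against 127 without. In every other comparison there were fewer than 3 pairs or a pair with r under 0.1. Promoter sequences are from RefSeq (GRCm38.p6), transcript lengths from GENCODE M21, a later build than that of the table. Figures were drawn with matplotlib 3.10.9.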

Additional observations from a re-analysis of the deposited data

Results flagged for a closer look

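For every gene of the lists the effect of DTx was set against itself across lineages. Prf1, which encodes the pore-forming protein of cytotoxic granules that activated CD8+ T cells release beside these chemokines, stood out by the test of that difference itself. It went from 1427 and 1404 normalized reads in CD4 PBS to 360, 546 and 819 in CD4 DTx, and from 5663 and 3488 in CD8 PBS to 12785, 17975.5 and 14992 in CD8 DTx. The log2 effect in CD4 minus that in CD8 cells was -3.14 (SE 0.46, limma adjusted p = 0.0447). Every CD4 DTx library lay below both CD4 PBS libraries, and every CD8 DTx library lay above both CD8 PBS libraries. The call was lost with edgeR (adjusted p = 0.0618), with no filter on low values (limma adjusted p = 0.0555), with the 4 groups fitted alone (0.128), without the libraries numbered 3 (0.546), without the CD8 libraries of high Ncr1 (0.478), and when any of Treg PBS 1, 2 or 3, CD4 PBS 2 or 3, CD8 PBS 3, CD4 DTx 2 or CD8 DTx 1, 2 or 3 was left out, at limma adjusted p-values between 0.0505 and 0.163.

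Cxcl16, the ligand of CXCR6, was noted for opposite directions. It was at 65.5, 56.2 and 115 normalized reads in CD4 DTx, above 34.2 and 37.6 in CD4 PBS, but at 60.7 and 26.7 in CD8 PBS and at 11.1, 1.93 and 17.5 in CD8 DTx. The difference of 3.30 on the log2 scale (SE 1.21) was not called (limma adjusted p = 0.984).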

How the results depend on the processing

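The levels of the 5 ligands moved by less than their SD under TMM scaling in all 25 combinations of gene and group, and in 0 of the results did an alternative reverse a called direction. The counts of ligands without overlap were the same, or within 1.5 times, under every alternative except in CD4 DTx against Treg PBS, where genes below numbered 1 to 3 with a library left out, 3 without the libraries numbered 3 and 2 without the CD4 DTx libraries of high Cd8a, and in CD4 DTx above CD8 DTx, which was 0 with TMM scaling. Genes called over the whole table, in the order Treg PBS, CD4 DTx and CD8 DTx against their PBS Tconv group, CD4 DTx and CD8 DTx against Treg PBS, and CD4 DTx against CD8 DTx, came to 2581, 1612, 1377, 1002, 1089 and 208 without a fold threshold and to 796, 437, 158, 88, 132 and 0 without the libraries numbered 3, where CD4 PBS against CD8 PBS and the difference of DTx effects were also at 0. With a library left out the ranges were 840 to 1426, 496 to 919, 153 to 994, 345 to 528, 451 to 688 and 51 to 133, with 57 to 133 for CD4 PBS against CD8 PBS and 0 to 14 for the difference of DTx effects, the lowest counts of the first 3 coming without CD4 PBS 3, CD4 PBS 3 and CD8 PBS 3. For CD4 DTx against CD8 DTx 51, 73, 59 and 62 genes were called without CD4 DTx 2, CD4 DTx 3, CD8 DTx 1 and CD8 DTx 2, and for CD4 PBS against CD8 PBS 57 without CD8 PBS 2. The difference of effects was called for 0 genes without either CD4 PBS library, for 14 without CD4 DTx 1 and for 1 to 3 without Treg PBS 2 or 3, CD4 DTx 2 or 3, or any CD8 DTx library. With edgeR 323 genes were called for CD4 DTx against Treg PBS and 76 for CD4 DTx against CD8 DTx. DESeq2 called 233 for the latter, 230 for CD4 PBS against CD8 PBS and 70 for the difference of effects, which was 10 with no filter. Groups fitted alone gave 201 for CD8 DTx against CD8 PBS, 59 for CD4 DTx against CD8 DTx and 34 for CD4 PBS against CD8 PBS. Without the CD8 libraries of high Ncr1 these were 346, 10 and 33, with 230 for CD8 DTx against Treg PBS and 1 for the difference of effects. Without the CD4 DTx libraries of high Cd8a they came to 335 for CD4 DTx against CD8 DTx and 97 for the difference of effects. The cause of these moves was not tested beyond the loss of samples that each setting makes.

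Of the other chemokine ligands, 0 to 1 was called in Treg PBS against CD4 PBS and in CD4 DTx against CD4 PBS with a library left out, and 0 to 3 in CD8 DTx against CD8 PBS, with 0 without either CD8 PBS library or CD8 DTx 2 and 3 without CD4 DTx 1. In Treg PBS 1 was called with DESeq2, with a pseudocount of 10, with groups alone, without the libraries numbered 3 and without those of high Cd8a. In CD8 DTx 4 were called with DESeq2, 0 with edgeR, groups alone or without the libraries of high Ncr1, and 2 without those numbered 3 or those of high Cd8a, and in CD4 DTx 1 without those numbered 3. The receptors called in CD8 DTx numbered 2 to 4 with a library left out (2 without CD8 PBS 3), 1 with groups alone, 2 without the libraries of high Ncr1 and 0 without those numbered 3, which left 2 in CD4 DTx. The replicate block gave 1307, 878 and 756 genes for Treg PBS, CD4 DTx and CD8 DTx against their PBS Tconv group, and it changed no receptor call. It took the Ifng and Srgn calls in CD4 cells under the fold threshold, at log2 fold changes of 1.79 and 1.78, and brought Jun past both thresholds there, although CD4 DTx and CD4 PBS share only a number (r = -0.21 and -0.31), which may or may not stand for a day of isolation.

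Depth limits Xcl1 in CD4 cells most, at 1 to 60 recovered reads in CD4 DTx, and Ccl1 in CD4 PBS, where 0 reads allow up to 4.10 normalized reads. Groups of 2 libraries rest on a spread shared with the other groups.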
